A study of Rattus norvegicus with 6 samples.

Results

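Insulin-like growth factors (IGFs) and the proteins that carry and receive them were followed in rat cultures labelled primary cardiac fibroblasts after pertussis toxin (PTX). The members are all probe sets whose platform annotation names 1 gene and that gene is Igf1, Igf2, Igf1r, Igf2r or one of Igfbp1 to Igfbp6. The rule found 24 of 8740 probe sets, for 9 of the 10 genes. Igfbp4 had no such probe set in the table used here and was not analysed. The genes were chosen by name, and no signal enters the rule. The family was, however, picked for study with the differences between PTX and control arrays known, so its changes and p-values describe these arrays and are not independent evidence of a response.

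Cells were isolated from the ventricles of Sprague-Dawley rats aged 1 to 2 days and grown in multiwell plates. The control group (3 samples) received water and the PTX group (3 samples) received PTX, the treatment lasting 24 h. Each sample was read on its own 1-colour Affymetrix array, and the sources used here give no dose of PTX. Nothing in the labels tells separate isolations from wells of 1 culture, so p-values rest on a spread between samples that may be technical. PTX is an enzyme of the whooping cough bacterium that modifies the alpha subunits of Gi and Go proteins, so that receptors can no longer activate them.

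IGF1 and IGF2 are secreted peptides related to insulin. Both activate IGF1R, a receptor tyrosine kinase that signals through insulin receptor substrates to the PI3 kinase, AKT and ERK pathways, whereas IGF2R, which also sorts lysosomal enzymes through mannose 6-phosphate, takes up IGF2 and delivers it for degradation. Binding proteins hold the peptides outside the cell, lengthen their life in the circulation and set how much reaches the receptor. In the heart, fibroblasts are a source of IGF1, and IGF1 promotes growth and survival of cardiomyocytes.

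Of the 9 genes, Igfbp3 had the smallest p and higher signals with PTX (1.40-fold on 1 of its probe sets), and Igf1r had lower signals on its brighter probe set (1.30-fold). Fold values here and below are of signal + 16, the scale of the test. Neither gene passed the test across all probe sets with the 6 arrays. Igfbp3 passed on both of its probe sets when control replicate 1 was left out, and on neither when any other array was. Without control replicate 1, 115 probe sets passed over the whole table, against 4 with all arrays. On the brighter Igfbp3 probe set control replicate 1 alone lay above the PTX arrays, so leaving it out by itself sets the groups apart there. For Igf1 the probe sets went in different directions. Igf2, Igf2r, Igfbp2, Igfbp5 and Igfbp6 had negative log2 changes whose intervals included 0 wherever they were tested. Those of Igfbp2 (-0.39 on 1 probe set) and Igfbp5 (-0.46) were as large as that of Igf1r (-0.38), with wider intervals.

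The arrays were alike in overall brightness, with median signals between 63.1 and 68.85, and control replicate 1 stood apart from the rest. Across all log2 values it correlated with the other 5 at 0.952 to 0.960, whereas those 5 correlated among themselves at 0.978 to 0.985. With 3 arrays a group, precision is limited by their number. The labelled cell type was checked against marker lists, where measured means left by the filter on dim signals described below. Of 13 measured fibroblast markers 7, and of 15 cardiomyocyte markers 11, were among the brightest 5% on each of the 6 arrays. Control means of Myl2 (52335) and Myh7 (47150), both cardiomyocyte markers, were above that of the brightest fibroblast marker, Col3a1 (20222). Cardiomyocyte signals were thus strong in these cultures, and the IGF family signals cannot be assigned to fibroblasts alone. The summed signal of the cardiomyocyte markers ran from 308220 to 387140 in the controls and from 269040 to 302260 with PTX. Of these 15, 11 had negative log2 changes and 4 positive ones, with a median of -0.14, or -0.085 without control replicate 1. Only 1 had an unadjusted limma p under 0.05, beside 12.5% of all genes. Actn2 had 1.02, all PTX arrays being higher, or 0.10 without control replicate 1. The summed signal of 6 measured macrophage and leukocyte markers ran from 3395 to 3515 in the controls and from 4227 to 5372 with PTX. Ptprc, Itgam, Csf1r and Cd74 of that list were on the array but too dim to be measured, as were the endothelial markers Pecam1 and Vwf. Lyz2, the lysozyme gene of macrophages, made up most of the macrophage and leukocyte sum, with mean signals of 2381 and 3445. Of the 6, 4 had positive log2 changes and 2 negative ones, C1qb (-0.39) and C1qc (-0.24, or 0.0021 without control replicate 1), both complement genes. Lyz2 (0.52) and Fcgr2b (0.88) had an unadjusted limma p under 0.05, 2 of 6 beside 12.5% of all genes. Their adjusted limma p was 0.303 and 0.0876, or 0.158 and 0.00791 without control replicate 1. The cardiomyocyte sum and the macrophage and leukocyte sum both separated the groups. Those of 13 fibroblast markers (97997 to 116810 and 100490 to 104560), 5 smooth muscle markers (22708 to 24928 and 22931 to 23855) and 3 endothelial markers (137 to 275 and 126 to 219.5) overlapped. The fibroblast sum hides differences of its members: 7 of the 13 had groups that did not overlap, as had 725 of all 3150 genes. At an unadjusted limma p under 0.05, 4 were higher and 1 lower, where 8.19% and 4.29% of all genes were so. Log2 changes were 1.10 for Lum, 1.07 for Postn and -0.97 for Thy1, and no fibroblast marker passed an adjusted p of 0.05. No measured marker of these lists was at 0 on any array, but the filter had removed dim ones beforehand. Probe sets not named rc_ were shifted downwards on these arrays: 34.8% of the tested ones were positive, against 47.1% of all tested. Probe sets named rc_ read 5 of the 15 cardiomyocyte markers and 2 of the 6 macrophage and leukocyte markers, Lyz2 among them. The part of this shift in the sums was not tested. The part of other cells in the IGF family values was not tested, and in such cultures fewer cells of a type cannot be told from less RNA per cell.

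Differences were taken on log2(signal + 16) and tested with limma over the 5244 probe sets left after those under the 40th percentile of mean signal were removed, with Benjamini-Hochberg adjustment over all of them. Of the 24 IGF family probe sets, 16 entered the test and 8 were too dim. Among the 16, 0 passed an adjusted p of 0.05 and 2 had an unadjusted p under 0.05, where 0.0763% and 12.6% of all tested probe sets did so. The smallest adjusted p in the family was 0.204. The 3 PTX arrays lay wholly above the controls for 1 of the 16 (Igfbp3), which held for 12.0% of all tested probe sets, and wholly below them for 2 (Igf1r and Igfbp2), which held for 10.6%. The Igfbp2 probe set passed the filter only through its controls, where it was higher. In either direction this is 3 of 16 against 22.6% of all tested probe sets, so such separation was no more frequent in the family than on the array as a whole. Over all 24 the median log2 change was -0.12 and 5 were positive, against -0.03 and 45.4% positive over the 8740. Probe sets not named rc_, which are 21 of the 24, were shifted downwards on these arrays in general: 34.8% of the 2960 tested ones were positive, with a median of -0.10, and 4 of the 14 tested in the family.

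**Figure D1:**
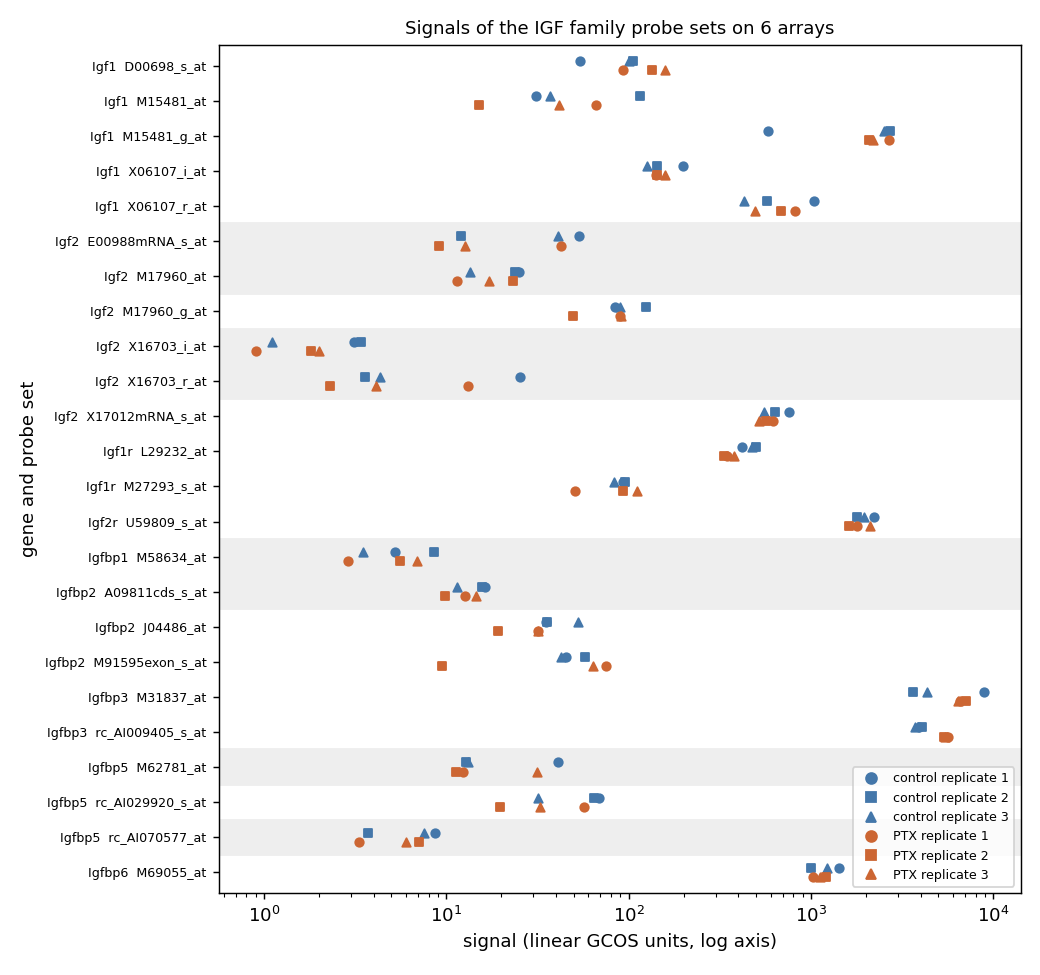
Signal of each of the 24 IGF family probe sets on the 6 arrays, on a log axis in linear GCOS units. Blue marks are the 3 control arrays and orange marks the 3 PTX arrays, shaped by replicate number, and grey rows are the 8 probe sets too dim to be tested. Orange lies wholly above blue for Igfbp3 rc_AI009405_s_at and wholly below it for Igf1r L29232_at and Igfbp2 J04486_at.

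Igfbp3 encodes the main carrier of IGFs in the circulation, which is also secreted by fibroblasts. Probe set rc_AI009405_s_at had signals of 3917.7, 4088.1 and 3718.4 on control arrays 1, 2 and 3, and of 5640, 5340.8 and 5414.1 on the PTX arrays. Every PTX array lay above every control array, and the spread within each group was small next to the gap between them. The means were 3908 ± 185 and 5465 ± 156 (SD, n = 3 each), 1.40-fold, a log2 change of 0.48 with a 95% interval of 0.23 to 0.73. In limma this had an unadjusted p of 0.00214 and an adjusted p of 0.204, so it did not pass over the whole table.

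The second Igfbp3 probe set, M31837_at, agreed in direction but not in its spread. Its control signals were 8902.6, 3643.5 and 4306.7, and its PTX signals 6552.7, 7109.2 and 6405.2. All PTX arrays lay above control replicates 2 and 3 and below control replicate 1, which was the highest of the 6. With all arrays the log2 change was 0.36 (95% interval -0.33 to 1.06; limma adjusted p = 0.594). Without control replicate 1 it was 0.75 (0.51 to 0.99), a 1.68-fold difference with an adjusted p of 0.00748, and that of rc_AI009405_s_at was 0.49 (0.27 to 0.70) with an adjusted p of 0.0318. In that fit 2 of the 16 family probe sets passed, both of Igfbp3 and both higher, where 1.85% of all tested probe sets passed as higher and 0.343% as lower. The 2 probe sets are annotated to 1 gene and were read on the same arrays, so they are not independent of each other. The suffix _s_at can mark a probe set shared between related transcripts, and this was not checked for rc_AI009405_s_at. Control replicate 1 lay between the other controls on rc_AI009405_s_at and was 1.59 times the mean of the other 5 arrays on M31837_at, so the 2 probe sets part mainly on that array.

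**Figure D2:**
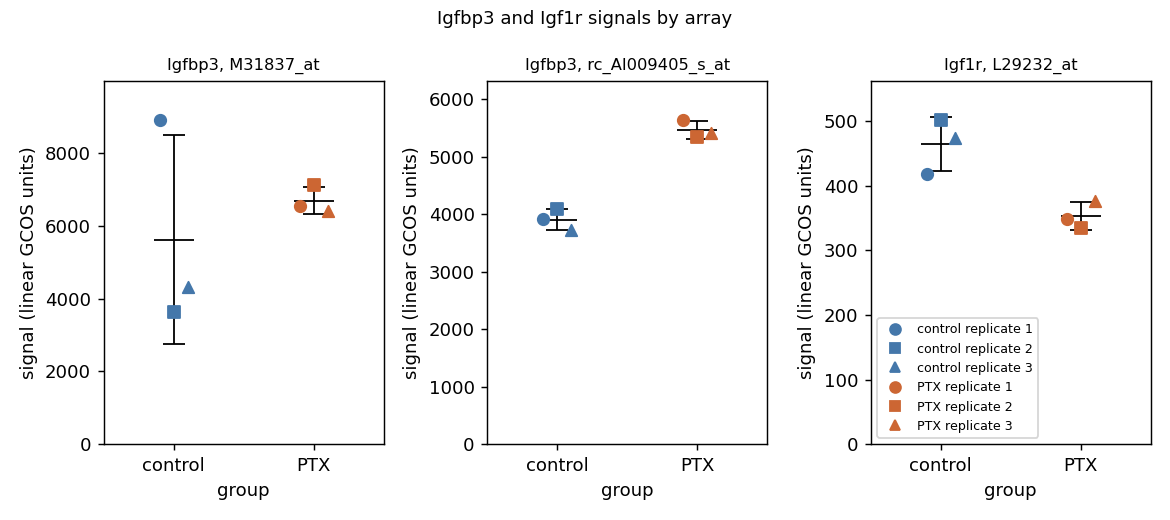
Signals of both Igfbp3 probe sets and of Igf1r L29232_at by array, in linear GCOS units on axes that start at 0. Marks are single arrays shaped by replicate number, and black lines give the group mean and SD (n = 3). On Igfbp3 M31837_at control replicate 1 (blue circle, 8902.6) is above the PTX arrays and the other controls below them, and on the other panels the groups are apart.

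The promoter of Igfbp3 is shown because it was the gene of the family with the smallest p. The window runs from 250 bases before to 50 bases after the RefSeq start site, at chr14:86277895-86278194 on the minus strand of GRCr8, and reads 5′ to 3′ with the only motif match in capitals, TATATA.
Igfbp3: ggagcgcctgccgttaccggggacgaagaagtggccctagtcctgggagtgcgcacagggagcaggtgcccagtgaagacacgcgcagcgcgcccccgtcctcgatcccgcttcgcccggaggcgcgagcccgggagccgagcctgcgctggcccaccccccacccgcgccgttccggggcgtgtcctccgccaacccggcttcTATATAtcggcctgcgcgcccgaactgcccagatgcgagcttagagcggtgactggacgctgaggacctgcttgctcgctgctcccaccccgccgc
The search covered both strands for the TATA box (TATAAA), the variant TATATA, the GC box (GGGCGG), the cAMP response element (TGACGTCA) and the core of that element (TGACG). Only TATATA occurs, 46 bases upstream of the start, and it was added to the search after the sequence had been read. Over 33469 rat promoter windows of this length, 6.15% hold TATATA, 14.2% the TATA box, 33.1% the GC box, 1.83% the full cAMP response element and 21.2% its core. A window with the full element also counts for the core. Igfbp3 lies on chromosome 14 with Igfbp1 as its next protein-coding neighbour, and Igfbp2 and Igfbp5 form a like pair on chromosome 9.

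Igfbp1, that neighbour, encodes a binding protein best known from liver, where insulin lowers its production. Its probe set M58634_at gave signals of 5.2, 8.6 and 3.5 in the controls and 2.9, 5.6 and 6.9 with PTX. The groups overlapped at the dim end of the arrays and the probe set was not tested.

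Igfbp2 encodes a binding protein abundant in fetal tissues. Its 3 probe sets were all dim. J04486_at had 35.3, 35.8 and 52.9 in the controls and 31.9, 19.3 and 32 with PTX, so that all PTX arrays were lower, by a log2 change of -0.39 (95% interval -1.02 to 0.24; limma adjusted p = 0.534). It passed the filter on dim signals only narrowly, at percentile 40.2 of mean signal, and only through its controls, as its PTX arrays alone lay under the cut. M91595exon_s_at had 45.6, 57.4 and 42.4 against 75, 9.5 and 64.1, where 1 PTX array was far below the controls and the others above them, with a log2 change of -0.17 (-1.26 to 0.92) that turned to 0.41 without PTX replicate 2, the low array. A09811cds_s_at stayed between 9.8 and 16.2 on all 6 arrays and was not tested. No common direction can be read from these 3 probe sets.

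Igfbp5, whose product binds extracellular matrix, was measured by 3 probe sets, 1 of them tested. On rc_AI029920_s_at the controls had 69.1, 64.6 and 32 and the PTX arrays 56.8, 19.7 and 32.5. The groups overlapped, with a log2 change of -0.46 (95% interval -1.28 to 0.36; limma adjusted p = 0.570). M62781_at lay between 11.3 and 40.9 and rc_AI070577_at between 3.3 and 8.7, both highest on control replicate 1.

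Igfbp6, which binds IGF2 in preference to IGF1, had 1 probe set and clear signals. M69055_at gave 1429.7, 1001.4 and 1226.6 in the controls and 1020.8, 1212.4 and 1121.9 with PTX. All PTX arrays lay within the range of the controls, and the log2 change of -0.11 had a 95% interval of -0.49 to 0.26 (limma adjusted p = 0.755). Without control replicate 1 it was 0.01 (-0.27 to 0.29). The interval with all arrays leaves out a rise of the size seen for Igfbp3 on rc_AI009405_s_at (0.48), but the difference between these genes was not tested.

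Igf1 was read by 5 probe sets, all tested, and they did not move together. The brightest, M15481_g_at, had 582, 2712.2 and 2520.6 in the controls and 2678.2, 2070 and 2177.9 with PTX. The mean of the other 5 arrays was 4.18 times the signal on control replicate 1, and those 5 lay close together. The log2 change was 0.53 with all arrays (95% interval -0.69 to 1.74; limma adjusted p = 0.655) and turned to -0.19 (-0.46 to 0.09) without control replicate 1.

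On 2 other Igf1 probe sets control replicate 1 deviated the opposite way. X06107_r_at had 1043.6, 573.9 and 428.4 against 814, 685 and 491.4 with PTX, and X06107_i_at 197.8, 142.9 and 126.1 against 140.5, 142.3 and 158.3. On both, control replicate 1 was the highest array, and the log2 changes of 0.03 and -0.05 became 0.38 and 0.12 without it. D00698_s_at had 54.3, 105.3 and 100.4 against 93, 134.5 and 158.4, with control replicate 1 lowest, and a log2 change of 0.51 (95% interval -0.14 to 1.15; limma adjusted p = 0.454), or 0.26 without that array. M15481_at varied within both groups, with 31.2, 115.3 and 37 against 66.4, 15.1 and 41.4. Whether control replicate 1 made more or less Igf1 transcript than the other cultures thus depends on the probe set read. In Affymetrix naming the suffixes _i_at, _r_at, _g_at and _s_at mark probe sets built under relaxed rules or shared between related transcripts.

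Igf2, the growth factor of fetal life, had 6 probe sets, of which 2 passed the filter. X17012mRNA_s_at had 754.9, 634.6 and 555.1 in the controls and 621.7, 563.2 and 516.7 with PTX. The groups overlapped, and the log2 change was -0.18 (95% interval -0.55 to 0.19; limma adjusted p = 0.613), or -0.07 without control replicate 1, the highest array. M17960_g_at had 84.2, 125.1 and 90.2 against 90.1, 49.3 and 91.2, a log2 change of -0.34 (-0.94 to 0.26; adjusted p = 0.571). The other 4 probe sets stayed between 0.9 and 53.5 on all arrays. All 6 had negative log2 changes, from -0.47 to -0.08, and all 6 had overlapping groups.

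Igf1r encodes the signalling receptor. On L29232_at the control signals were 418.4, 501.4 and 473, and the PTX signals 347.9, 334.8 and 376.2. Every PTX array lay below every control array, control replicate 1 being the lowest of the controls. The means were 464 ± 42.2 and 353 ± 21.2 (SD, n = 3 each), 1.30-fold lower with PTX, a log2 change of -0.38 with a 95% interval of -0.70 to -0.06. Its unadjusted limma p was 0.0259 and its adjusted p 0.360, and without control replicate 1 the change was -0.45 (-0.73 to -0.17; adjusted p = 0.112). The dimmer probe set M27293_s_at had 92.7, 94.9 and 83.3 against 50.7, 93 and 110.9. There 1 PTX array was below and 1 above all controls, and the log2 change was -0.13 (-0.73 to 0.48), an interval that holds the value of L29232_at.

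The Igf1r promoter is shown beside that of Igfbp3 because the genes had opposite directions. It lies at chr1:130959747-130960046 on the plus strand of GRCr8, over the same distances from the start site, and capitals mark its only match, GGGCGG.
Igf1r: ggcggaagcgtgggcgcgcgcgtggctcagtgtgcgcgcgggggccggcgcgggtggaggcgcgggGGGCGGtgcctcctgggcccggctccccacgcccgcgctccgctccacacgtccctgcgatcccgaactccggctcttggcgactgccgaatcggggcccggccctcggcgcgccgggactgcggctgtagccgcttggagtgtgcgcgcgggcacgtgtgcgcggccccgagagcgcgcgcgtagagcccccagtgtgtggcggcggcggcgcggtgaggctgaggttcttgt
Of its bases 78% are G or C, against 71.7% for Igfbp3 and a median of 51.7% over all promoter windows. Among 11 RefSeq windows of the 10 genes, the GC box occurs in 5, the TATA box, its variant and the core of the cAMP response element in 1 each, and the full element in 0. These are matches of letters, and no factor binding was measured.

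Igf2r, the receptor that removes IGF2, had 1 probe set, U59809_s_at, with 2226.1, 1794.4 and 1945.7 in the controls and 1789.2, 1615.5 and 2113 with PTX. The groups overlapped and the log2 change was -0.11 (95% interval -0.46 to 0.23; limma adjusted p = 0.726). Without control replicate 1, again the highest array, it was -0.03 (-0.31 to 0.25).

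**Figure D3:**
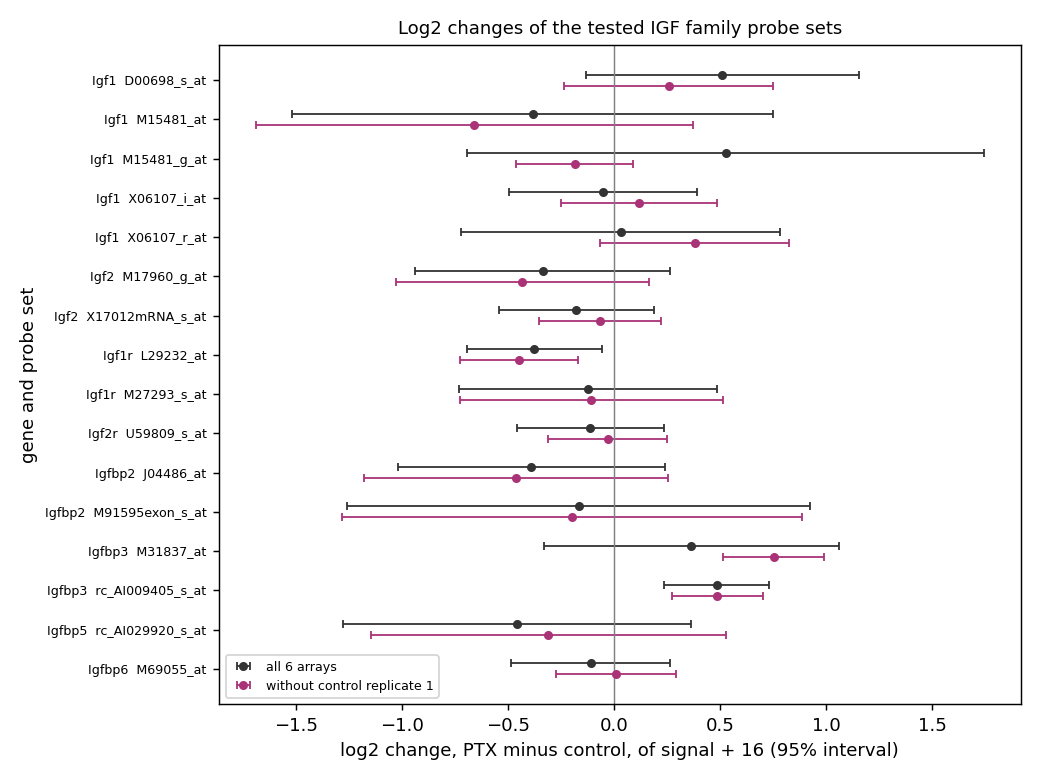
Log2 change of signal + 16, PTX minus control, of the 16 tested IGF family probe sets, with limma's 95% intervals. Black points use all 6 arrays and purple points leave out control replicate 1. With all arrays only Igfbp3 rc_AI009405_s_at and Igf1r L29232_at have intervals clear of 0, and without control replicate 1 Igfbp3 M31837_at joins them; the intervals are not adjusted for the number of probe sets.

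Control replicate 1 was the highest of the 6 arrays on 13 of the 24 family probe sets and the lowest on 2, both of Igf1. Over all 8740 probe sets it was the highest on 33.1% and the lowest on 22.9%. Among tested probe sets not named rc_ it was the highest on 44.9%, and on 6 of the 14 in the family. Its ratio to the mean of the other 5 arrays ran from 0.239 on Igf1 M15481_g_at to 4.60 on the dim Igf2 X16703_r_at. Without it, 8 of the 24 probe sets had positive log2 changes in place of 5, and the median was -0.06.

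**Figure D4:**
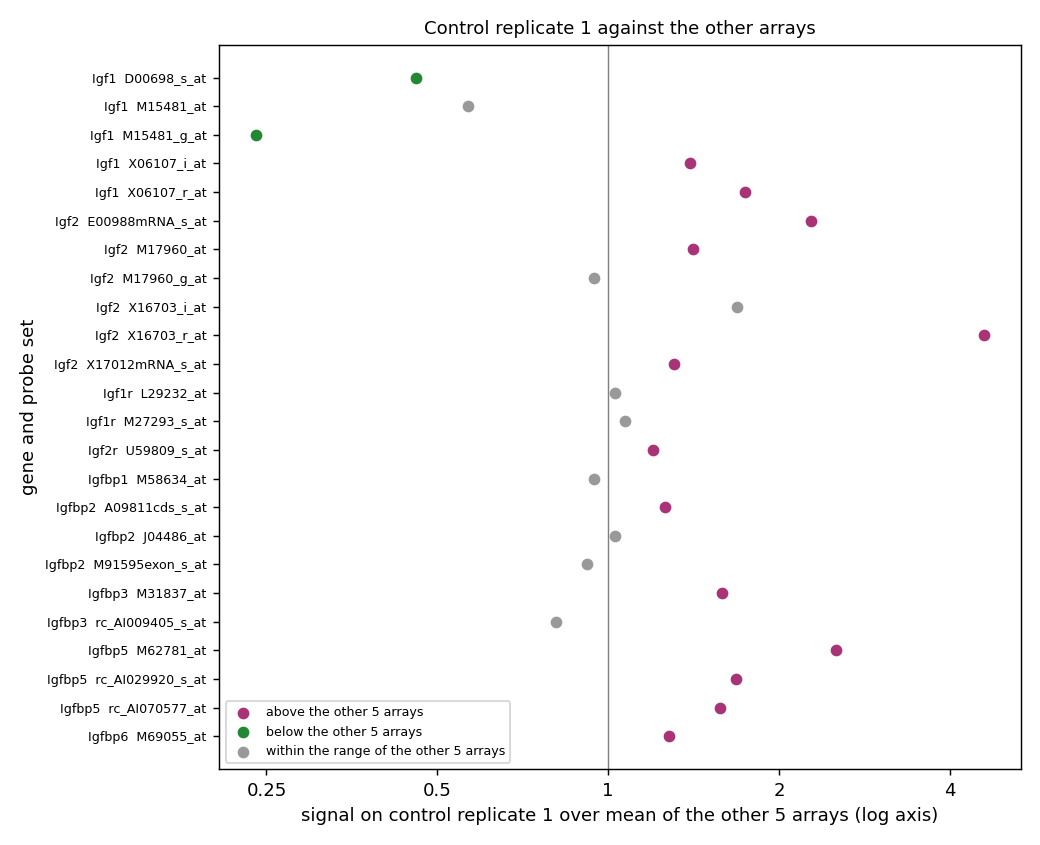
Signal of each IGF family probe set on control replicate 1 divided by its mean on the other 5 arrays, on a log axis where 1 is no difference. Purple points (13) are above all other arrays, green points (2) below all of them and grey points within their range. The 5 Igf1 probe sets fall on both sides of 1, from 0.239 to 1.74.

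The probe sets of a gene were compared within each array, taking the brightest against each of the others. There were 15 such pairs in 6 genes, 8 of them with both probe sets tested. The difference in log2 change was largest between Igf1 M15481_g_at and M15481_at, at 0.91 (exact permutation test, two-sided, p = 0.3), and was -0.12 for Igfbp3 (exact p = 1) and -0.25 for Igf1r (exact p = 0.4). After adjustment over the 15 pairs each p was 1. With 3 against 3 arrays the exact test cannot go below 0.1, so it neither shows the probe sets of a gene to differ nor to act alike.

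The genes whose signals ran most like those of Igfbp3 differed between its probe sets. For rc_AI009405_s_at, which had the smallest p of the family, the 5 highest Pearson correlations over the 6 arrays were with Lcn2 (0.987), Nrk (0.987), Psmb9 (0.984), Ciapin1 (0.978) and Glul (0.978), of 4379 probe sets compared. Of these only Lcn2, an iron-binding lipocalin, passed the test between the groups (log2 change 1.65, limma adjusted p = 0.0217). For M31837_at, the brightest of the family, they were with Atp6v0c (0.987), Scarb2 (0.985), Mvp (0.982), Mipep (0.978) and Irf1 (0.978), none of which passed. As 62 and 52 probe sets had correlations above 0.9, these orders describe 6 points and carry no test.

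Among proteins around the IGF axis, 7 of 13 listed genes were measured and 0 passed in limma, with 1 lower at an unadjusted p under 0.05, which held for 4.29% of all 3150 genes with a tested probe set. Of the 7, 6 were negative, and the median was -0.23. Over the 3150 genes 1633 were negative and the median was -0.01. All 7 were, however, read by probe sets not named rc_, the class given above in which 34.8% were positive and the median was -0.10. Stc1, encoding stanniocalcin 1, an inhibitor of the protease that cuts IGFBP4, had 374 ± 65.6 in the controls and 279 ± 20.9 with PTX (SD, n = 3 each), all PTX arrays being lower (log2 change -0.39, limma adjusted p = 0.397). The insulin genes, which are textbook products of pancreatic beta cells, had signals of 118 ± 22.2 and 93.8 ± 26.3 for Ins1 and 210 ± 35.8 and 176 ± 24.7 for Ins2. No detection calls were used, so it was not tested whether signals of this size mark a transcript, for these genes or for the dim IGF family probe sets. A second tested probe set of Ins1 had 0.88 where the brightest had -0.30, and Insrr, the insulin receptor-related receptor, had -0.32. Without control replicate 1 the brightest Ins1 probe set had -0.18 and Insrr -0.19.

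Of 50 listed genes that carry the signal from IGF1R, 28 were measured and 0 passed, with 14 positive, 14 negative and a median of -0.0039, or -0.064 without control replicate 1. At an unadjusted p under 0.05, 3 were higher and 2 lower, where 8.19% and 4.29% of the 3150 genes were so. Among the 3 is Socs2, which is also on the growth hormone list below and entered the test through its PTX arrays. Eif4ebp1, the repressor of cap-dependent translation that mTOR inactivates, had 4905 ± 846 in the controls and 3356 ± 116 with PTX (SD, n = 3 each; log2 change -0.53, limma adjusted p = 0.274). Its partner Eif4e, the cap-binding protein, had the opposite sign, with 204 ± 52.7 and 299.5 ± 42.8 (0.54, adjusted p = 0.375), or 0.33 without control replicate 1. Akt1, the kinase downstream of PI3 kinase, had 0.40 on rc_AA799664_at (adjusted p = 0.275) and -0.13 on its other probe set. Irs2, an adaptor of the insulin and IGF1 receptors, had a log2 change of -0.53 where it was brightest (adjusted p = 0.397) and up to 0.36 on its other probe sets.

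Proteases that can cut binding proteins included 6 measured genes of 16, and 0 passed in limma, with 1 higher at an unadjusted p under 0.05 beside 8.19% of the 3150 genes (12.5% in either direction). Mmp9, the gelatinase B gene, had signals of 24.9 ± 15 in the controls and 77.8 ± 21.7 with PTX (SD, n = 3 each), all PTX arrays being higher (log2 change 1.24, limma adjusted p = 0.269). Its control signals alone lay under the filter cut, so Mmp9 entered the test only through its PTX arrays, where it was higher. The count of 1 therefore only describes these arrays. The membrane protease Mmp14 had 0.16, the urokinase gene Plau 0.10 and cathepsin D, Ctsd, -0.08, all with overlapping groups. Without control replicate 1 Ctsd turned to 0.14 and Mmp14 had 0.27. In the growth hormone pathway that induces Igf1, 7 of 8 listed genes were measured and 0 passed, again with 1 higher at an unadjusted p under 0.05 and the same background. Socs2, a feedback inhibitor of growth hormone signalling, had 28.0 ± 18.8 and 56.5 ± 1.88 (0.82, adjusted p = 0.397), Jak2 0.33, Stat5b -0.46 and the receptor Ghr -0.08. The controls of Socs2 alone also lay under the filter cut, so it entered the test through its PTX arrays. Socs2 is the 1 higher gene here and was counted among the higher genes of the IGF1R signalling list as well. Ghr is likewise on the list of proteins around the IGF axis, so the counts of these lists are not separate results. Without control replicate 1 Socs2 had 0.46 and Stat5b -0.25, Ghr turned to 0.06, and the median of the 7 turned from -0.0028 to 0.14.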

How the data were processed

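The values were taken as deposited, for 6 arrays. The authors deposited 1 linear intensity per probe set and array, and per the submitters' processing notes they used GCOS, the Affymetrix software (version and scaling target: not given in the sources used here). As the 2% trimmed means of the arrays were 493 to 495, no further scaling was applied, and there were 0 further columns of per-sample values and 0 identical arrays. Titles gave each sample's group and number.

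Names came from the platform annotation (7006 with 1 symbol, 308 with several, 1426 with none), updated through Entrez identifiers with RefSeq of GRCr8 for 6985. Promoters are RefSeq windows of GRCr8. PTX was compared with control by limma 3.58.1 in R 4.3.3 (lmFit, eBayes with an intensity trend) on log2(signal + 16), two-sided, with a 40th percentile filter. The procedure was also run on simulated data with the same noise on every array. That simulation holds no deviating array like control replicate 1, so it cannot show how the fit performs on these arrays. List genes were represented by their brightest probe set. Named were all members, up to 4 genes per other list with the smallest p, and the 5 probe sets most correlated with each of 2 members; other values were chosen after being seen. Members, lists and alternatives were chosen with earlier results of these data known. The replicate numbers in the titles are not said to pair the samples, and the main fit used no pairing. Deviations of same-numbered arrays correlated at -0.09, -0.11 and -0.01, which cannot settle how the samples were prepared.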

Additional observations from a re-analysis of the deposited data

How the results depend on the processing

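The alternatives were pseudocounts of 1 and 64, a 60th percentile filter or none, common median scaling, quantile and cyclic loess normalization, the replicate block, eBayes without a trend or with robust variances, array quality weights, and each array left out. The count of IGF family probe sets past an adjusted p of 0.05 was 0 in each except array quality weights, with 1 (Igfbp3 rc_AI009405_s_at, log2 change 0.46, adjusted p = 0.0464), and control replicate 1 left out, with 2, so the range on leaving out an array was 0 to 2. No listed pathway gene passed in any. Over all probe sets the count of 4 became 2 with a pseudocount of 1, 7 with 64, 2 with quantile normalization, 0 with the replicate block, 0 without a trend, 9 with robust variances and 81 with array quality weights, and 0 to 115 on leaving out an array (115 without control replicate 1, 30 without control replicate 3, 0 without any PTX array). The causes were not tested.

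The family's signs depended most on Igf1. With array quality weights M15481_g_at turned to -0.074, X06107_i_at to 0.060 and Igfbp6 M69055_at to 0.036, and with quantile normalization X06107_r_at turned to -0.0063. The difference between Igf1 M15481_g_at and D00698_s_at, 0.016, turned to -0.056 with a pseudocount of 1. On leaving out an array, log2 changes ran from -0.71 to 0.078 for M15481_at, -0.19 to 0.91 for M15481_g_at, -0.18 to 0.12 for X06107_i_at and -0.25 to 0.38 for X06107_r_at. They ran from -0.32 to 0.15 for Igf1r M27293_s_at, -0.51 to 0.41 for Igfbp2 M91595exon_s_at and -0.24 to 0.0093 for Igfbp6. Igfbp3 M31837_at ran from 0.11 to 0.75 and rc_AI009405_s_at from 0.45 to 0.52. The other tested members kept their sign in every setting that tested them, and the median over the 24 probe sets ran from -0.21 to -0.057. Without detection calls, how many of the 8 dim probe sets lie at background is not known.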
